A study of Mus musculus with 9 samples.

Results

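The SLC25 family holds the carrier proteins that sit in the inner membrane of mitochondria and exchange nucleotides, organic acids, amino acids, cofactors and ions between the matrix and the cytosol. Members were taken from the deposited table by symbol, as every gene whose symbol begins with Slc25a together with the uncoupling protein genes Ucp1, Ucp2 and Ucp3, which belong to the same family under older names. The table held 50 such genes among 19058. RNA was sequenced from primary Leydig cells of WT mouse testes, in 3 libraries of cells exposed to triphenyl phosphate (TPhP), 3 of cells exposed to diphenyl phosphate (DPhP) and 3 of Control cells. TPhP is a triester used as a flame retardant and plasticiser, and DPhP is the diester that remains when TPhP loses a phenyl group. Leydig cells are the steroid-producing cells of the testis. No source used here gives the animals' age, the dose, the exposure time or the vehicle. Nor do they say whether replicate libraries stem from separate cultures or animals, and p-values therefore refer to library-to-library spread, part of which may be technical.

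As background, a carrier of this family is built from repeated units that together form a narrow pore with a substrate site in the middle, and most members swap a molecule on the inside for one on the outside. The ADP/ATP carriers and the phosphate carrier supply the ATP synthase, the citrate carrier brings acetyl units out for fatty acid and cholesterol synthesis, and the aspartate/glutamate and oxoglutarate carriers move reducing equivalents. In steroid-producing cells, the side-chain cleavage of cholesterol takes place on the matrix side of the same membrane.

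All 6 Leydig markers examined reached 1 FPKM in at least 1 library, with a highest value of 661 FPKM. FPKM is a read density per transcript length, relative to all mapped fragments of a library. The marker Lhcgr was at 0.55 to 0.64 FPKM in DPhP libraries and at most 1.8 FPKM in any library. The summed FPKM of all genes was 419107 to 422363 in TPhP, 398680 to 401930 in DPhP and 421963 to 428928 in Control libraries. Across tested genes, Pearson correlations were 0.995 to 0.996 between TPhP and Control libraries and 0.953 to 0.956 between DPhP and Control libraries, so the DPhP libraries stood apart as a group. Read depth is unknown, because the deposited values are FPKM without counts, and no counting error can be given.

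Proximal promoters of the family were looked up in the RefSeq table for GRCm38.p6, which held 49 start sites of 39 of the 50 members. The windows of 4 members are printed as examples of the responses described below: Slc25a30 and Slc25a42, the largest falls with DPhP among tested members, Slc25a1, the citrate carrier, which fell less, and Slc25a24, 1 of the 5 members that rose with DPhP. Each is the 200 bases before the start site, read 5′ to 3′ on the gene's own strand, and lies at chr14:75787038-75787237 (minus strand) for Slc25a30, chr8:70212282-70212481 (minus strand) for Slc25a42, chr16:17928220-17928419 (minus strand) for Slc25a1 and chr3:109122949-109123148 (plus strand) for Slc25a24. The GENCODE M21 annotation places 24 bases of the Slc25a42 window, next to the start site, in an exon of Slc25a42. Capitals mark GC boxes (GGGCGG) and CCAAT boxes on either strand.
Slc25a30: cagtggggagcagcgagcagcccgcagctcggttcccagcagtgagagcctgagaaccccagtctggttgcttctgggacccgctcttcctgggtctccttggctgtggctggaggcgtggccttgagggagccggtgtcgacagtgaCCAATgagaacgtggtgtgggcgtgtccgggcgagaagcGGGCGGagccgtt
Slc25a42: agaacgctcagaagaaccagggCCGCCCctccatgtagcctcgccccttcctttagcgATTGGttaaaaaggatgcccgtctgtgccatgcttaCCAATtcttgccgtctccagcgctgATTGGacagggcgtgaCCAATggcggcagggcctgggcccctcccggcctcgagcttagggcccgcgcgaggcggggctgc
Slc25a1: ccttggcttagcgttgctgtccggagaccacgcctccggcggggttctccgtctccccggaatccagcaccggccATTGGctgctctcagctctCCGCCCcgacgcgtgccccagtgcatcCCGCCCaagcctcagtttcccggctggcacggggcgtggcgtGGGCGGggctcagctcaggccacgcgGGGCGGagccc
Slc25a24: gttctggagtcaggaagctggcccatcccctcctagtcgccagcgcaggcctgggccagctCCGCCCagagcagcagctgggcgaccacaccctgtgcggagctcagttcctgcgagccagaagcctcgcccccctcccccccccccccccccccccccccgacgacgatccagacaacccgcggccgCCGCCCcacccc

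The printed Slc25a30 window holds 1 GC box and 1 CCAAT box, and that of Slc25a42 holds 1 GC box and 4 CCAAT boxes. The Slc25a1 window has 4 GC boxes and 1 CCAAT box, while that of Slc25a24 has 2 GC boxes and no CCAAT box. Over full windows from 250 bases before to 50 after the start site, GGGCGG was found on either strand in 31 of 39 member genes (79.5%). The share was 38.2% of all 27025 genes in the RefSeq table, which were not limited to genes with FPKM values or to tested genes. CCAAT was found in 48.7% of the member genes and 41.1% of all genes, and the E-box CACGTG in 17.9% and 8.09%. The cAMP response element TGACGTCA was present in Slc25a25 and Slc25a36, that is 5.13% of member genes against 2.03% of all genes. The half-site CAAGGTCA, which can bind Nr5a1 or estrogen-related receptors, the NRF1 palindrome and the PPAR direct repeat were found in 1.76%, 1.07% and 0.0481% of all genes and in 0 of the 39 members. GC content of the 200 bases before the start had a median of 60.0% in carrier promoters and 53.0% in all promoters. No overlap was counted between these motifs, and a match is only a description of the letters in these windows.

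A few carriers held most of the family's RNA. In Control libraries Slc25a3, the phosphate carrier, averaged 305 ± 9.63 FPKM (SD, n = 3), Ucp2 297 ± 3.24, Slc25a30 280 ± 9.04, and the ADP/ATP carriers Slc25a5 and Slc25a4 254 ± 5.97 and 219 ± 8.95. The ranges of Slc25a3 and Ucp2 overlapped in Control libraries, while each later step down in this order was larger than the spread. These 5 genes made up 71.3% of the summed carrier FPKM in TPhP libraries, 67.9% to 68.2% in DPhP libraries and 71.7% to 72.1% in Control libraries. Next came Slc25a39, a glutathione carrier, with 92.9 ± 1.57 FPKM, and Slc25a1 with 48.1 ± 0.966 FPKM in Control libraries. In all, 18 of the 50 members averaged at least 10 FPKM in Control libraries and 38 averaged at least 1 FPKM. Replicates were close: over tested members the median coefficient of variation was 3.43% in TPhP, 5.77% in DPhP and 3.67% in Control libraries.

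**Figure D1:**
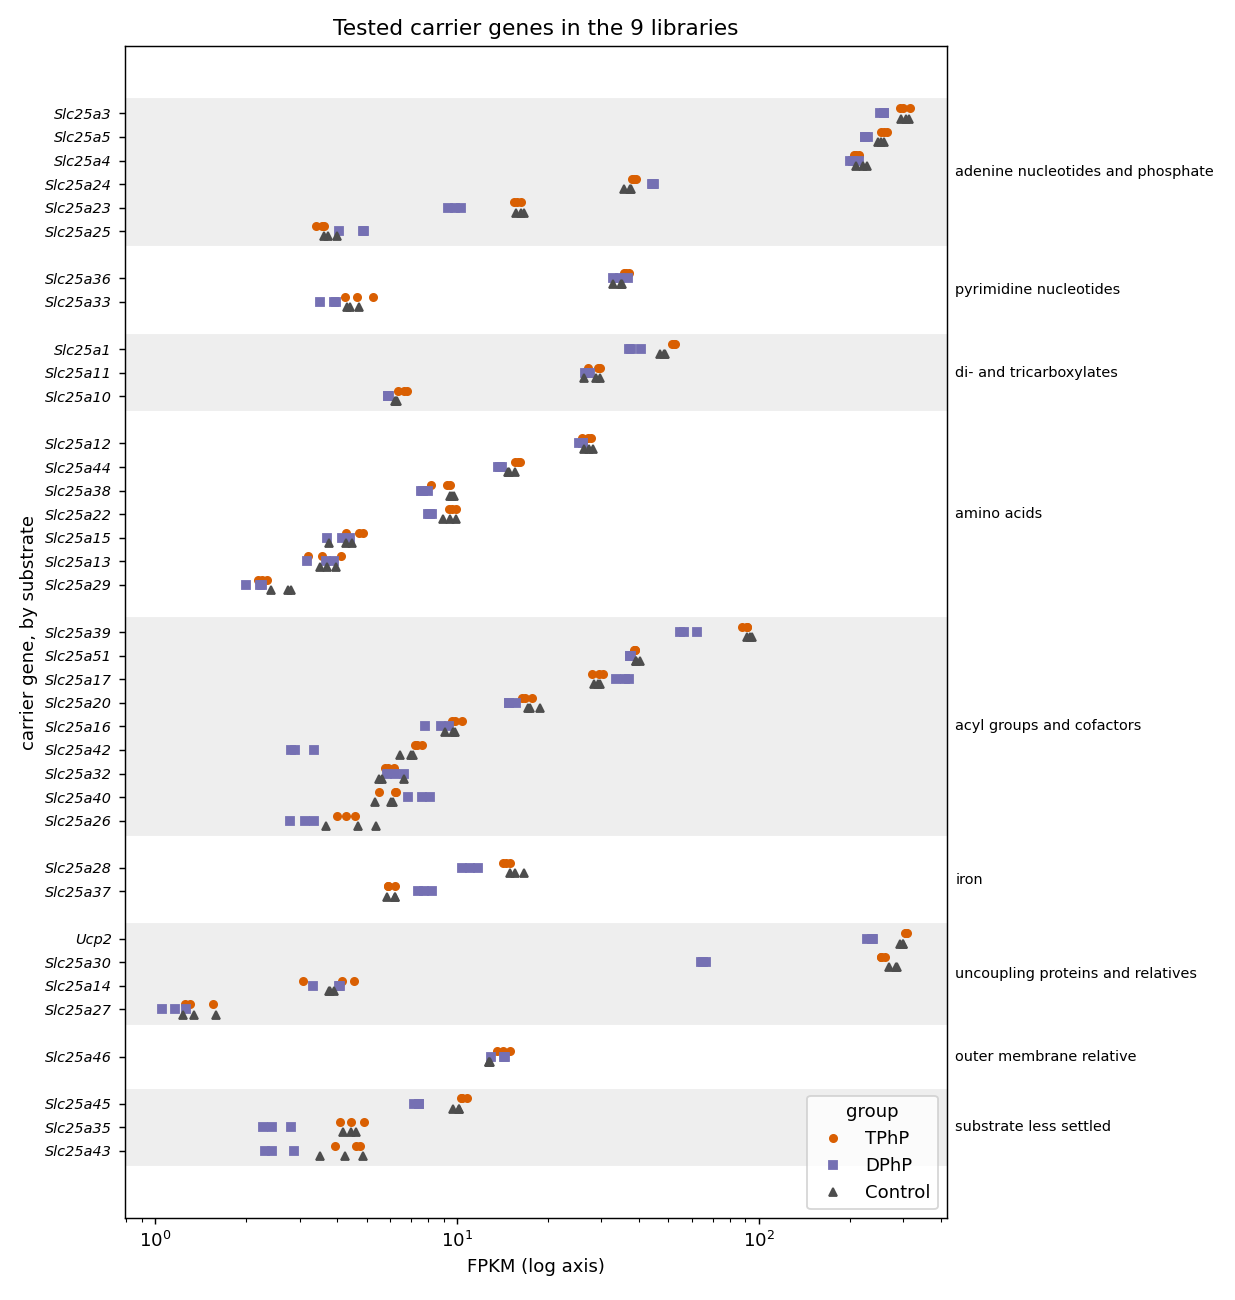
FPKM (log axis) of 37 tested carrier genes in each of the 9 libraries, grouped by substrate and marked by group; each point is 1 library. Slc25a3, Ucp2, Slc25a30, Slc25a5 and Slc25a4 lie above 200 FPKM in Control libraries, and the DPhP points of Slc25a30 lie near 65 FPKM.

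The 12 members under the filter (at least 1 FPKM in at least 3 libraries) include carriers known from other tissues. Ucp1, the uncoupling protein of brown fat, was listed at 0 in 8 libraries and at 0.03 FPKM in Control 3, and Ucp3, its muscle relative, stayed at or below 0.06 FPKM. Slc25a31, the ADP/ATP carrier of germ cells, was at 0.1 to 0.53 FPKM. The ATP-Mg/phosphate carrier Slc25a41 reached 0.04 FPKM, the ornithine carrier Slc25a2 0.15, the glutamate carrier Slc25a18 0.42 and the oxoadipate carrier Slc25a21 0.44 FPKM at most. Slc25a47, a liver-enriched member, was at 0.42 to 1.17 FPKM. Slc25a48, linked to choline transport, reached 0.38 FPKM, and the less characterised Slc25a53 and Slc25a54 reached 0.51 and 0.07 FPKM. The last of the 12, Slc25a34, was at 0.57 to 0.87 FPKM in TPhP, 0.11 to 0.15 in DPhP and 0.72 to 0.85 in Control libraries, with no overlap between DPhP and Control. In a fit without the filter it differed between DPhP and Control (log2 fold change -0.66, limma adjusted p = 3.06e-05), as did Slc25a48 (-0.34, adjusted p = 0.000399), Slc25a21 (-0.32, 0.00775), Slc25a47 (-0.33, 0.0168), Slc25a31 (-0.24, 0.0156) and Slc25a2 (-0.12, 0.0246). All of these values are under 1.2 FPKM, where the pseudocount of 1 compresses differences. The share of all genes called in the fit without the filter is not given here. With the filter, 71% of all tested genes were called between DPhP and Control, so such calls do not set these members apart.

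The first comparison set cells exposed to TPhP against Control cells. Among the 38 tested members 1 fell, Slc25a30, and none rose, or 2.63% of members, beside 6.22% of all 12369 tested genes called in either direction and 3.64% called lower at an adjusted p under 0.05 (limma on log2(FPKM + 1), Benjamini-Hochberg over all tested genes). Slc25a30, also known as kidney mitochondrial carrier protein, is a close relative of the brain uncoupling protein Slc25a14. It was at 261, 253 and 253 FPKM in the TPhP libraries, against 283, 269 and 287 FPKM in the Control libraries. Every TPhP value lay below every Control value, and the difference was small (log2 fold change -0.13, SE 0.0295, adjusted p = 0.0275). The call ended without Control 1, Control 3, TPhP 2 or TPhP 3 (adjusted p = 0.0920, 0.0905, 0.0904 and 0.0790), after rescaling to a common sum (0.0539), without the filter (0.0516) and with a variance that had no trend (0.0789).

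At an unadjusted p under 0.05, 5 of 38 members differed between TPhP and Control, against 21.9% of all tested genes. Besides Slc25a30 these were Slc25a29, Slc25a24, Slc25a1 and Slc25a46. Slc25a1 exports citrate, the precursor of cytosolic acetyl-CoA. It was at 51.5, 52.3 and 52.7 FPKM in TPhP libraries, against 48.4, 47.0 and 48.9 FPKM in Control libraries. The groups did not overlap, but the difference did not pass (log2 fold change 0.12, 95% interval 0.04 to 0.19, adjusted p = 0.0853), and it passed without DPhP 2 (adjusted p = 0.0308) and in a fit to the 6 libraries compared (0.0453). Slc25a46, an outer membrane relative that acts in mitochondrial dynamics, was at 14.2, 14.9 and 13.5 FPKM in TPhP libraries and 12.8, 12.8 and 12.8 FPKM in Control libraries (log2 fold change 0.14, adjusted p = 0.108). Slc25a29, a carrier of basic amino acids, had a log2 fold change of -0.17 (adjusted p = 0.156). The 95% intervals of the 37 members without a call lay between -0.31 and 0.28, which does not show that the levels were equal. The median log2 fold change was 0.017 over tested members and 0.006 over all tested genes.

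The second comparison set cells exposed to DPhP against Control cells. Most tested members differed: 22 fell, 5 rose and 11 did not pass, a share of 71.1%, beside 71% of all tested genes, so the number of calls does not set the family apart. By direction, 57.9% of tested members fell, beside 37.9% of all tested genes, and 13.2% rose, beside 33.1%. Both shares are descriptions, with no test of the family. The median log2 fold change was -0.156 over members and -0.021 over all tested genes. Called differences of at least 0.5 on the log2 scale, all falls, were found for 6 members (15.8%), beside 19.8% of all tested genes in either direction. Rescaling every library to a common sum turned the split over all genes to 5216 higher and 3728 lower, against 4089 and 4693 without it, and gave 6 higher and 17 lower members.

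**Figure D2:**
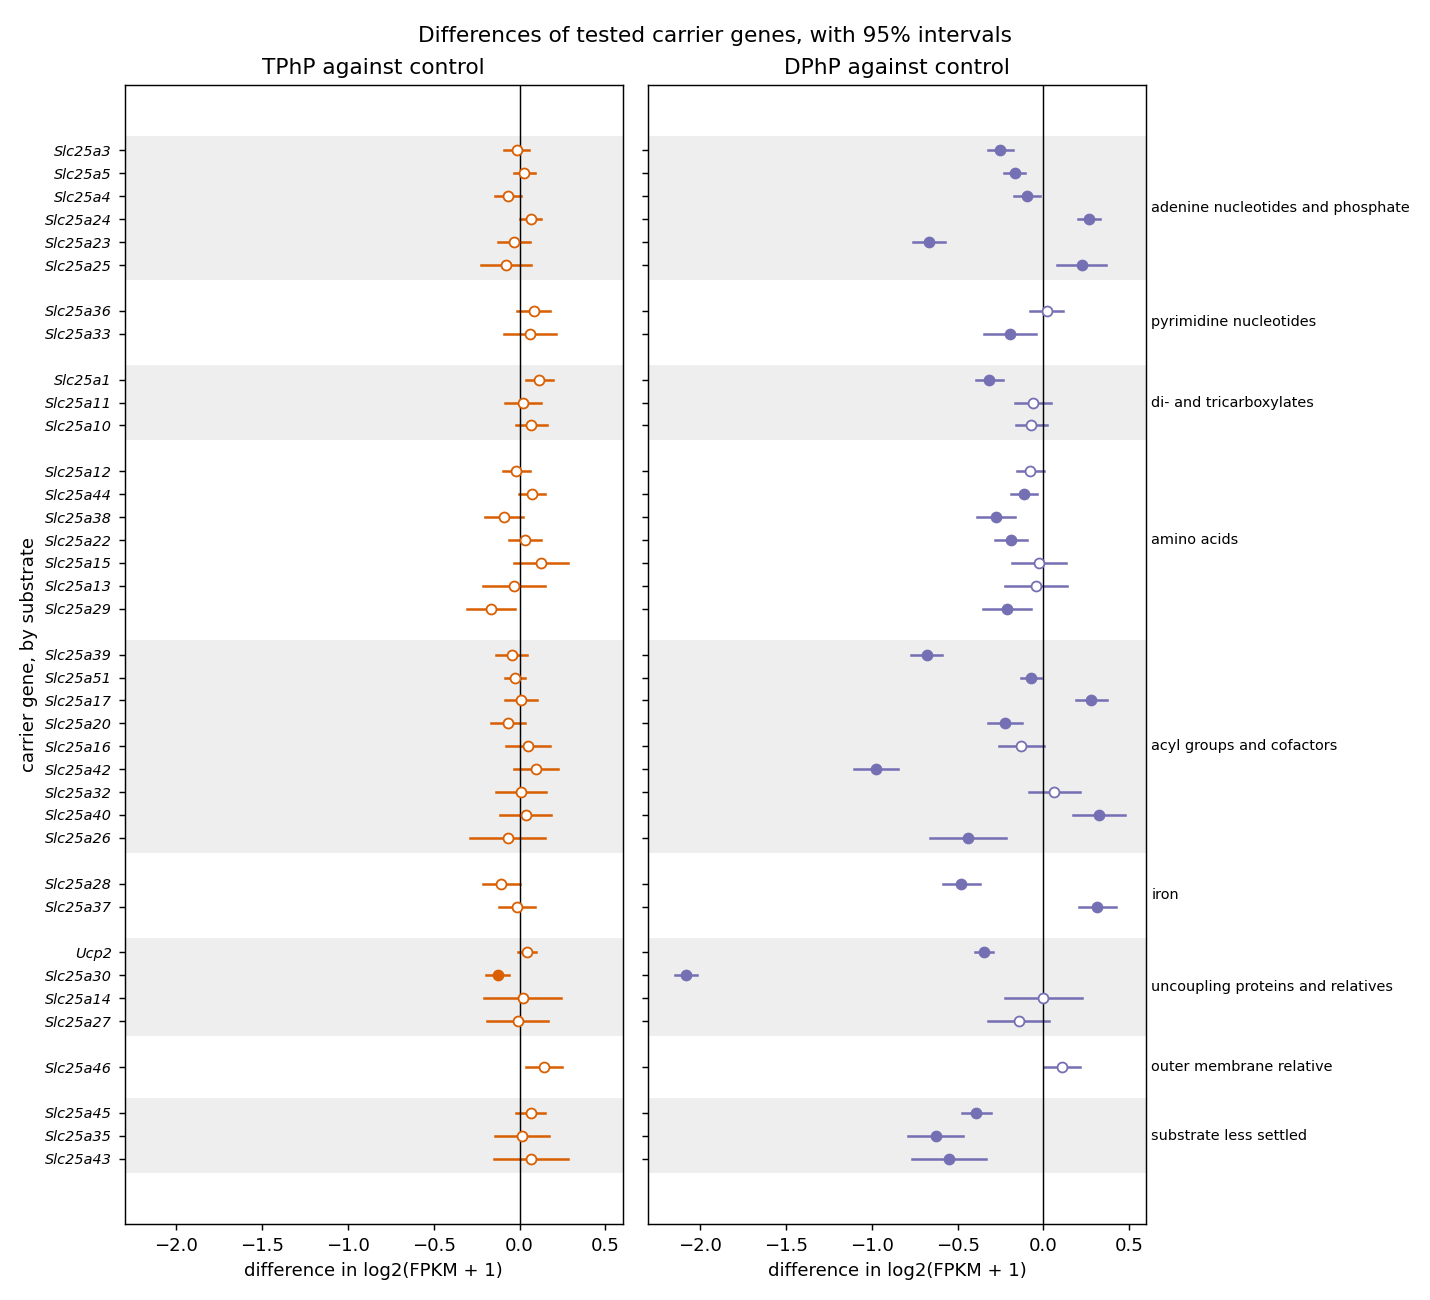
Difference in log2(FPKM + 1) with its 95% interval for 37 tested carrier genes, TPhP against Control on the left and DPhP against Control on the right; filled points passed at an adjusted p under 0.05. With TPhP every estimate lies between -0.17 and 0.14, and with DPhP Slc25a30 stands at -2.08 and Slc25a42 at -0.97.

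Slc25a30 had the largest fall with DPhP among tested members. It was at 65.1, 66.7 and 64.0 FPKM in DPhP libraries, against 283, 269 and 287 FPKM in Control libraries. The groups were far apart, with a mean 4.29-fold lower in DPhP libraries and a spread of a few percent within each group (log2 fold change -2.08, SE 0.0295, adjusted p = 3.26e-13). Of all 12369 tested genes 0.631% had a log2 fold change at least as large in either direction. The gene lies on chromosome 14 from 75757534 to 75787037 in GRCm38.p6, overlaps no other gene of the deposited table, and shares no 75-base stretch of its longest transcript with another gene.

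Other uncoupling relatives differed less or not at all. Ucp2, an uncoupling protein of many cell types, was at 237, 228 and 236 FPKM in DPhP libraries, against 298, 299 and 293 FPKM in Control libraries (log2 fold change -0.34, adjusted p = 1.44e-07). Slc25a14, the uncoupling protein of brain closest to Slc25a30, averaged 3.83 ± 0.430 FPKM in DPhP and 3.82 ± 0.0814 FPKM in Control libraries and did not pass. Slc25a27, another brain uncoupling protein, averaged 1.16 ± 0.105 FPKM in DPhP and 1.39 ± 0.184 FPKM in Control libraries (log2 fold change -0.14, adjusted p = 0.128). The 95% intervals of these last 2 genes reached from -0.32 to 0.22.

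Carriers of adenine nucleotides and phosphate moved in both directions with DPhP, 4 of 6 tested members lower and 2 higher. The abundant ones fell little. Slc25a3 was at 258, 251 and 259 FPKM in DPhP libraries and 307, 313 and 295 FPKM in Control libraries (log2 fold change -0.25, adjusted p = 3.34e-05). Slc25a5 had 230, 223 and 224 FPKM in DPhP libraries and 254, 260 and 248 FPKM in Control libraries (-0.17, adjusted p = 0.000157). It has 72.1% unique sequence because of processed pseudogenes, so its level is less certain than that of its relatives. For Slc25a4, at 206 ± 7.34 FPKM in DPhP and 219 ± 8.95 FPKM in Control libraries, the ranges overlapped (-0.09, adjusted p = 0.0306). That call ended without Control 1, Control 2, DPhP 2 or DPhP 3 (adjusted p 0.0790 to 0.123), without the filter (0.0539), with a variance that had no trend (0.0659), with median-of-ratios size factors (0.124) and after rescaling to a common sum (log2 fold change -0.01, adjusted p = 0.812), and quantile normalization turned its sign.

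Calcium-regulated ATP-Mg/phosphate carriers, which adjust the adenine nucleotide pool of the matrix, split within their own subgroup. Slc25a23 fell to 9.34, 10.3 and 9.84 FPKM in DPhP libraries, against 16.3, 16.7 and 15.7 FPKM in Control libraries (log2 fold change -0.67, SE 0.0418, adjusted p = 5.13e-08). Slc25a24 rose to 44.9, 44.2 and 44.4 FPKM in DPhP libraries, against 37.2, 37.6 and 35.8 FPKM in Control libraries (0.27, adjusted p = 5.1e-06). Neither gene's groups overlapped. Slc25a25 rose as well, to 4.04, 4.85 and 4.89 FPKM in DPhP libraries, against 3.62, 3.98 and 3.74 FPKM in Control libraries (0.22, adjusted p = 0.0093). The Slc25a25 locus overlaps Naif1. The ratio of Slc25a24 to Slc25a23 was 4.54 ± 0.259 in DPhP and 2.28 ± 0.0174 in Control libraries. Of the pyrimidine nucleotide carriers, Slc25a33 fell to 3.79 ± 0.235 FPKM in DPhP libraries, against 4.49 ± 0.218 FPKM in Control libraries (-0.20, adjusted p = 0.0235), a call that ended without Control 1 or DPhP 1 (0.0831 and 0.0906) and after rescaling to a common sum (log2 fold change -0.13, adjusted p = 0.118). Slc25a36 averaged 34.7 ± 2.02 FPKM in DPhP and 34.2 ± 1.35 FPKM in Control libraries and did not pass.

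Of 3 tested carriers of di- and tricarboxylates, the citrate carrier fell with DPhP. Slc25a1 was at 37.6, 40.7 and 37.1 FPKM in DPhP libraries, against 48.4, 47.0 and 48.9 FPKM in Control libraries, with no overlap (log2 fold change -0.32, SE 0.0357, adjusted p = 8.74e-06). The dicarboxylate carrier Slc25a10 averaged 5.91 ± 0.0306 FPKM in DPhP and 6.26 ± 0.0651 FPKM in Control libraries, and the oxoglutarate/malate carrier Slc25a11 averaged 27.0 ± 0.577 FPKM in DPhP and 28.2 ± 1.80 FPKM in Control libraries. Neither passed, with 95% intervals from -0.16 to 0.04, and Slc25a11 passed as lower without Control 3 (adjusted p = 0.0400). The Slc25a11 locus overlaps Rnf167.

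Of 7 tested amino acid carriers 4 fell with DPhP and 3 did not pass. Slc25a38, the glycine carrier that feeds heme synthesis, fell to 8.02, 7.68 and 7.57 FPKM in DPhP libraries, against 9.72, 9.46 and 9.58 FPKM in Control libraries (log2 fold change -0.27, adjusted p = 0.00046). The glutamate carrier Slc25a22 fell by 0.19 on the log2 scale (adjusted p = 0.00175), Slc25a29 by 0.21 (0.0113) and the branched-chain amino acid carrier Slc25a44 by 0.11 (0.0127). The Slc25a44 call ended without Control 2 (0.0539), with median-of-ratios size factors (0.0515), with quantile normalization (0.0532) and after rescaling to a common sum (log2 fold change -0.03, adjusted p = 0.409). The Slc25a29 call ended after rescaling (0.0551). The aspartate/glutamate carriers of the malate-aspartate shuttle did not pass. Slc25a12 averaged 25.8 ± 0.494 FPKM in DPhP and 27.3 ± 0.930 FPKM in Control libraries (adjusted p = 0.0738, and 0.0364 without Control 3), and Slc25a13 averaged 3.59 ± 0.373 FPKM in DPhP and 3.72 ± 0.227 FPKM in Control libraries. Slc25a12 was the main form in every library, at 6.65 to 7.93 times the level of Slc25a13 in DPhP and 7.12 to 7.50 times in Control libraries. The ornithine carrier Slc25a15 averaged 4.08 ± 0.359 FPKM in DPhP and 4.17 ± 0.369 FPKM in Control libraries.

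Among 10 carriers of acyl groups and cofactors 6 fell and 2 rose with DPhP. Slc25a42, which brings coenzyme A into the matrix, fell to 2.89, 2.81 and 3.35 FPKM in DPhP libraries, against 7.03, 7.13 and 6.47 FPKM in Control libraries. Its groups did not overlap, and its mean was 2.28-fold lower with DPhP (log2 fold change -0.97, SE 0.0588, adjusted p = 3.68e-08). Slc25a16, also linked to coenzyme A, averaged 8.67 ± 0.790 FPKM in DPhP and 9.55 ± 0.375 FPKM in Control libraries and did not pass (-0.13, adjusted p = 0.0705, and 0.0202 without DPhP 1). Slc25a17, a peroxisomal member that carries cofactors such as coenzyme A, rose to 37.2, 33.5 and 35.8 FPKM in DPhP libraries, against 29.7, 29.2 and 28.3 FPKM in Control libraries (0.28, adjusted p = 9.14e-05).

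The mitochondrial glutathione carriers moved in opposite directions. Slc25a39 fell to 62.1, 54.6 and 56.4 FPKM in DPhP libraries, against 91.3, 93.1 and 94.4 FPKM in Control libraries (log2 fold change -0.68, SE 0.0415, adjusted p = 4.05e-08). Its paralogue Slc25a40 rose to 8.13, 6.88 and 7.64 FPKM in DPhP libraries, against 6.04, 6.10 and 5.35 FPKM in Control libraries (0.32, adjusted p = 0.0012). Groups overlapped for neither gene, and Slc25a39 stayed the main form, at 7.65 ± 0.280 times Slc25a40 in DPhP and 16.0 ± 1.42 times in Control libraries. Slc25a26, which imports S-adenosylmethionine, fell by 0.44 on the log2 scale (adjusted p = 0.00211), and its locus overlaps Lrig1. The carnitine/acylcarnitine carrier Slc25a20, needed for fatty acid oxidation, fell to 15.1 ± 0.502 FPKM in DPhP libraries, against 17.8 ± 0.901 FPKM in Control libraries (-0.22, adjusted p = 0.000803). The NAD carrier Slc25a51 averaged 37.5 ± 0.0929 FPKM in DPhP and 39.4 ± 0.738 FPKM in Control libraries (-0.07, adjusted p = 0.0256), a call that ended without Control 2, DPhP 1 or DPhP 3 (0.0555 to 0.0952), with median-of-ratios size factors (0.176) and with quantile normalization (0.749), and whose sign turned after rescaling. The folate/FAD carrier Slc25a32 averaged 6.23 ± 0.390 FPKM in DPhP and 5.93 ± 0.646 FPKM in Control libraries and did not pass.

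The mitoferrins, which import iron for heme and iron-sulfur clusters, also moved apart. Slc25a28, mitoferrin 2, fell to 11.66, 10.33 and 11.02 FPKM in DPhP libraries, against 16.6, 15.6 and 14.9 FPKM in Control libraries (log2 fold change -0.48, adjusted p = 4.62e-06). Slc25a37, mitoferrin 1, which is known from red cell precursors, rose to 8.27, 7.38 and 7.77 FPKM in DPhP libraries, against 6.21, 6.19 and 5.84 FPKM in Control libraries (0.31, adjusted p = 0.000121). Neither gene's groups overlapped, and the ratio of Slc25a28 to Slc25a37 was 1.41 ± 0.00902 in DPhP and 2.58 ± 0.0868 in Control libraries. Of 5 red blood cell markers 4 were tested, Hba-a1, Hba-a2, Hbb-bs and Hbb-bt. All 4 were lower with DPhP, beside 37.9% of all tested genes, and were listed at 0 in the DPhP libraries. Hba-a1 reached 1 FPKM only in Control libraries, so the filter let it in through the group where it is high. The fifth, Alas2, was under the filter, at 0.25 ± 0.0173 FPKM in DPhP and 0.26 ± 0.05 FPKM in Control libraries. Summed over the 5, the level was 0.23 to 0.26 FPKM in DPhP and 19.0 to 32.2 FPKM in Control libraries. A relation to Slc25a37 was not tested.

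**Figure D3:**
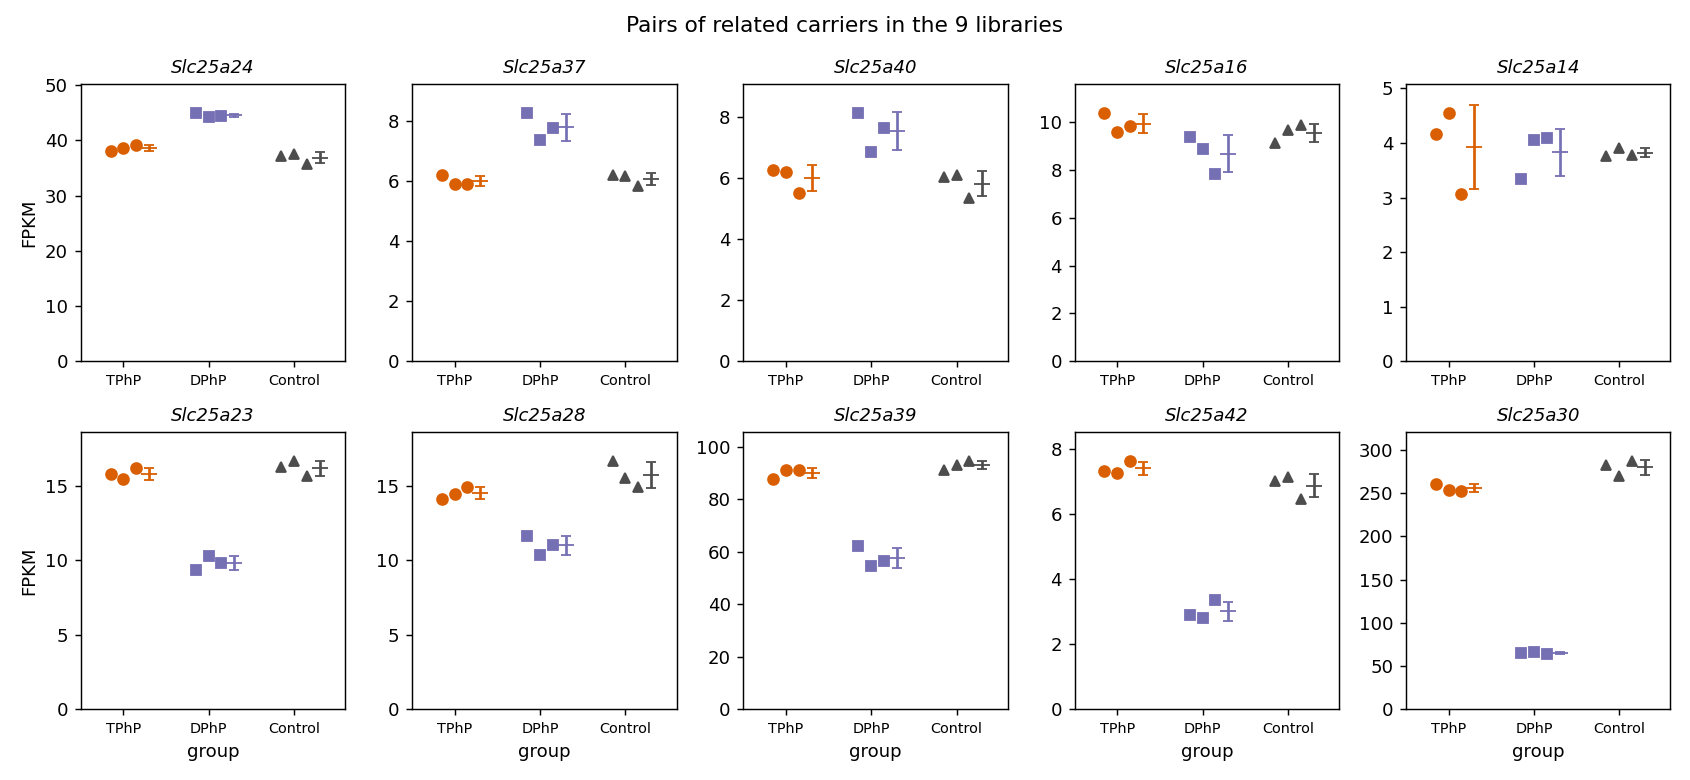
FPKM of 5 pairs of related carriers, 1 pair in each column, with each library as a point and the mean and SD beside it, for TPhP, DPhP and Control libraries. Slc25a24, Slc25a37 and Slc25a40 are higher in DPhP than in Control libraries, while Slc25a23, Slc25a28, Slc25a39, Slc25a42 and Slc25a30 are lower.

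All 3 tested members without a settled substrate fell with DPhP. Slc25a35 was at 2.82, 2.27 and 2.44 FPKM in DPhP libraries, against 4.18, 4.44 and 4.62 FPKM in Control libraries (log2 fold change -0.63, adjusted p = 1.06e-05). It overlaps Rangrf and has 76.9% unique sequence, and since the strand of the library kit is not stated, reads of both genes could be mixed. Slc25a43 was at 2.43, 2.88 and 2.31 FPKM in DPhP libraries, against 3.52, 4.23 and 4.85 FPKM in Control libraries (-0.55, adjusted p = 0.000344). Slc25a45 fell to 7.37 ± 0.159 FPKM in DPhP libraries, against 9.97 ± 0.261 FPKM in Control libraries (-0.39, adjusted p = 2.8e-06). Slc25a46 averaged 13.9 ± 0.830 FPKM in DPhP and 12.8 ± 0.0100 FPKM in Control libraries and did not pass (0.11, adjusted p = 0.0581), and it passed as higher without DPhP 2 (0.0094) and after each of the 3 other scalings (0.0036 to 0.0215).

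Summed over all 50 members, the family stood at 1851 to 1881 FPKM in TPhP, 1425 to 1478 FPKM in DPhP and 1858 to 1899 FPKM in Control libraries. This was 0.442% to 0.445% of all FPKM in TPhP, 0.355% to 0.368% in DPhP and 0.440% to 0.447% in Control libraries. Slc25a30 made up 13.7% ± 0.253 of the carrier sum in TPhP, 4.50% ± 0.157 in DPhP and 14.9% ± 0.624 in Control libraries. Without Slc25a30, the sum was 1611 ± 14.98 FPKM in TPhP, 1385 ± 27.0 FPKM in DPhP and 1604 ± 29.3 FPKM in Control libraries. The DPhP and Control libraries did not overlap in either sum.

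**Figure D4:**
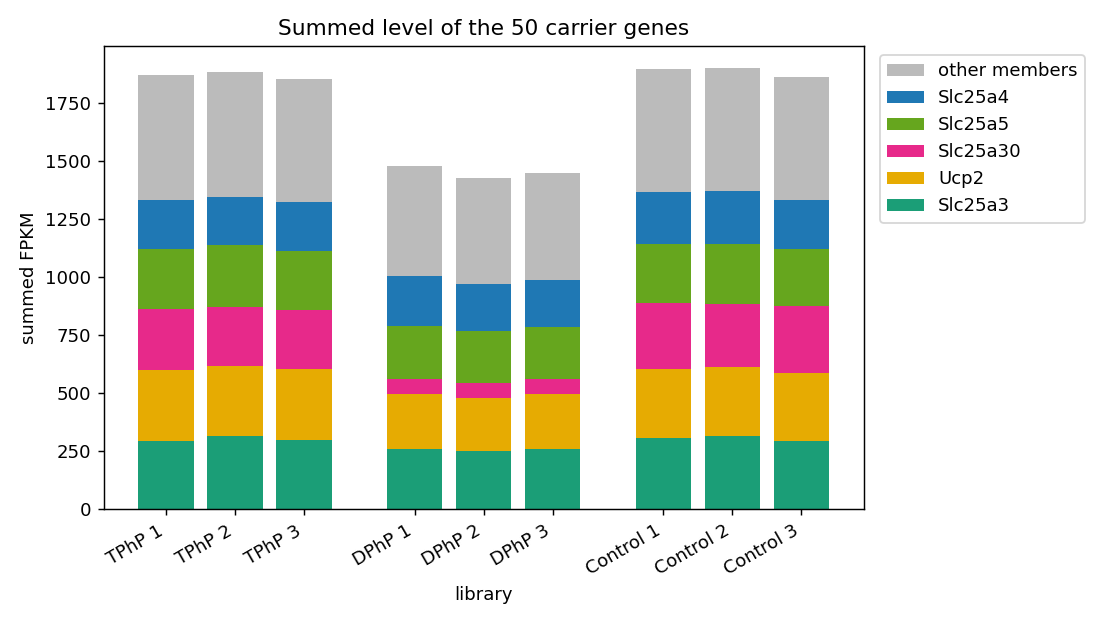
Summed FPKM of the 50 carrier genes in each of the 9 libraries, stacked by the 5 most abundant members and the rest. DPhP libraries stand at 1425 to 1478 FPKM and Control libraries at 1858 to 1899 FPKM, and the Slc25a30 segment is 4.50% of the bar with DPhP and 14.9% in Control libraries.

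Markers of several cell types moved with DPhP beside these differences, and their part in them was not tested. In bulk samples, fewer cells of a type and less RNA per cell cannot be told apart. Over all tested genes 33.1% rose and 37.9% fell with DPhP. The counts below are of tested markers, and the sums cover all listed markers. Tested were 5 of 6 macrophage, 3 of 6 Sertoli, 2 of 5 endothelial and 5 of 6 germ cell markers. The endothelial marker Kdr and the smooth muscle marker Des reached 1 FPKM only in DPhP libraries, and the germ cell marker Ddx4 only in Control libraries. The filter let each of them in through the group where it is high, which favours a call in that direction. Leydig markers fell in 5 of 6 cases, with a summed level of 328.4 to 342.5 FPKM in DPhP libraries and 1670 to 1785 FPKM in Control libraries. Peritubular smooth muscle markers rose in 5 of 5 cases (1528 to 1585 FPKM in DPhP and 592 to 660 FPKM in Control libraries) and stromal fibroblast markers in 5 of 5 (2398 to 2442 FPKM in DPhP and 1397 to 1411 FPKM in Control libraries). Of tested macrophage markers 3 of 5 rose and 1 fell (185 to 194 FPKM in DPhP and 176 to 186 FPKM in Control libraries). Sertoli markers rose in 3 of 3 cases and endothelial markers in 2 of 2, with sums up to 57.4 and 31.9 FPKM in DPhP libraries and up to 19.0 and 11.4 FPKM in Control libraries. Most of the endothelial sum was Cdh5, with a mean of 29.3 FPKM in DPhP and 9.62 FPKM in Control libraries. The untested Tek averaged 0.543 and 0.58 FPKM there, Pecam1 0.27 and 0.127, and Emcn 0.227 and 0.113. Of the untested Sertoli markers Rhox5 had a lower mean with DPhP (0.0467 against 0.207 FPKM). Fshr and Amh had higher means (0.163 against 0.05 and 0.36 against 0.15 FPKM). Germ cell markers fell in 4 of 5 cases, to a sum of 3.77 to 4.0 FPKM in DPhP libraries, against 17.8 to 24.3 FPKM in Control libraries. Markers of brown fat and striated muscle summed to at most 2.61 and 0.91 FPKM in DPhP libraries and 0.64 and 3.93 FPKM in Control libraries. No marker was at 0 in all 9 libraries. With TPhP, limma called 0 of 6 Leydig markers, which summed to 1758 to 1828 FPKM. Lower than in Control libraries were 2 of 5 macrophage, 2 of 5 germ cell, 1 of 3 Sertoli, 1 of 5 stromal and 1 of 4 red blood cell markers. Of all tested genes 3.64% were called lower with TPhP. The germ cell marker Ddx4 was close to the filter, averaging 0.68 FPKM in TPhP and 1.28 FPKM in Control libraries. Both Ddx4 and Hba-a1 passed the filter only through Control libraries, where they are high. Hba-a1 averaged 0.273 FPKM in TPhP and 6.71 FPKM in Control libraries. Hba-a2 went the other way without a call, with 5.65 FPKM in TPhP and 1.91 FPKM in Control libraries (limma adjusted p = 0.0649). Hbb-bs and Hbb-bt had lower means with TPhP, also without a call. These marker calls were not followed under the alternatives.

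Genes that work with the carriers gave the setting. Of 13 genes for the import of carrier proteins none was called between TPhP and Control by limma. An unadjusted p under 0.05 was found for 2, beside 21.9% of all tested genes. With DPhP 7 of the 13 fell and 2 rose, beside 37.9% lower and 33.1% higher of all tested genes. The median log2 fold change with DPhP was -0.117 beside -0.021. The small chaperone genes Timm13 and Timm8b, which escort carriers across the space between the membranes, fell by 0.72 and 0.54 on the log2 scale (adjusted p = 1.12e-07 and 4.31e-07), and the receptor Tomm20 and the pore Tomm40 by 0.30 and 0.26 (3.17e-05 and 0.000287). Of 24 other mitochondrial membrane transport genes 8 fell and 6 rose with DPhP, beside 37.9% lower and 33.1% higher of all tested genes. Their median log2 fold change was 0.016, beside -0.021. Smdt1, a subunit of the calcium uniporter, fell to 37.7 ± 2.91 FPKM in DPhP libraries, against 89.8 ± 4.53 FPKM in Control libraries (log2 fold change -1.23, adjusted p = 3.29e-09). The cholesterol-binding outer membrane protein gene Tspo and the pyruvate carrier gene Mpc1 fell by 0.51 and 0.46 on the log2 scale (2.5e-08 and 9.46e-08), whereas the porin gene Vdac3 rose by 0.50 (7.1e-09). Vdac3 was also called higher with TPhP (log2 fold change 0.10, adjusted p = 0.0319), and it lost that call when Control 1, Control 3 or a single TPhP library was left out (0.0510 to 0.115).

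Of 18 genes for enzymes on either side of the carrier shuttles 11 fell and 2 rose with DPhP, beside 37.9% lower and 33.1% higher of all tested genes. The malic enzyme gene Me1 fell to 334 ± 6.64 FPKM in DPhP libraries, against 663 ± 3.87 FPKM in Control libraries (log2 fold change -0.99, adjusted p = 1.44e-11). Its mitochondrial relative Me3 fell by 0.89 on the log2 scale (8.93e-08), Got1, the cytosolic aspartate transaminase of the malate-aspartate shuttle, by 0.60 (1.3e-08) and Idh1, the cytosolic isocitrate dehydrogenase, by 0.32 (2.49e-07). With TPhP 2 of the 18 rose, beside 2.58% of all tested genes. Acly, which splits the citrate that Slc25a1 exports, had 99.5 ± 1.37 FPKM in TPhP libraries, against 77.0 ± 0.617 FPKM in Control libraries (0.37, adjusted p = 4.69e-06), and Me1 had a log2 fold change of 0.10 (adjusted p = 0.0318), a call lost on leaving out any single TPhP or Control library (0.0665 to 0.114).

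Of 16 tested regulators of mitochondrial biogenesis and general mitochondrial genes none was called with TPhP by limma. An unadjusted p under 0.05 was found for 5 of them, beside 21.9% of all tested genes. With DPhP 7 fell and 5 rose, beside 37.9% lower and 33.1% higher of all tested genes. Esrra, an estrogen-related receptor gene that drives many mitochondrial genes, fell to 6.27 ± 0.166 FPKM in DPhP libraries, against 10.8 ± 0.577 FPKM in Control libraries (log2 fold change -0.70, adjusted p = 1.06e-07). The prohibitin gene Phb2 fell by 0.37 on the log2 scale (9.22e-07), while the coactivator gene Pprc1 and the fission gene Dnm1l rose by 0.47 and 0.35 (9.83e-07 and 1.85e-06). Citrate synthase, Cs, chosen after its values were seen as a common gauge of mitochondrial content, averaged 87.3 ± 2.55 FPKM in TPhP, 87.8 ± 1.19 FPKM in DPhP and 88.7 ± 3.78 FPKM in Control libraries and was not called against Control with either compound (adjusted p = 0.753 and 0.710).

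The third comparison set TPhP directly against its diester DPhP, in the fit of all 9 libraries, where Control libraries entered the estimate of the spread but not the difference. No source used here gives doses or times, so the groups were compared as deposited, for this 1 pair of compounds. Of the 38 tested members 21 were higher and 5 lower in TPhP than in DPhP libraries and 12 did not pass, a share of 68.4% beside 68.7% of all tested genes (37.8% higher and 30.9% lower). Of all tested genes 4672 were higher and 3823 lower in TPhP libraries, and 3800 and 4770 after rescaling to a common sum, where 18 members were higher and 5 lower. Slc25a30 had 261, 253 and 253 FPKM in TPhP libraries, against 65.1, 66.7 and 64.0 FPKM in DPhP libraries (log2 fold change 1.95, 95% interval 1.89 to 2.02, adjusted p = 5.23e-13). Slc25a42 had 7.33, 7.26 and 7.62 FPKM in TPhP libraries, against 2.89, 2.81 and 3.35 FPKM in DPhP libraries (1.07, 0.94 to 1.20, adjusted p = 1.72e-08). These groups were fully separate.

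Called differences of at least 0.5 on the log2 scale between the compounds were found for 7 of 38 members (18.4%), each higher in TPhP libraries, beside 19.2% of all tested genes in either direction. Besides Slc25a30 and Slc25a42 they included Slc25a35, Slc25a23, Slc25a39 and Slc25a43 (log2 fold changes 0.64, 0.64, 0.63 and 0.62). The glutathione carrier gene Slc25a39 had 87.7, 91.2 and 91.0 FPKM in TPhP libraries, against 62.1, 54.6 and 56.4 FPKM in DPhP libraries (adjusted p = 7.79e-08). The ATP-Mg/phosphate carrier gene Slc25a23 had 15.8, 15.4 and 16.2 FPKM in TPhP libraries, against 9.34, 10.3 and 9.84 FPKM in DPhP libraries (adjusted p = 8.17e-08). In each case the lowest TPhP library lay above the highest DPhP library. Slc25a35 had 4.89, 4.45 and 4.08 FPKM in TPhP libraries, against 2.82, 2.27 and 2.44 FPKM in DPhP libraries (adjusted p = 9.25e-06), and Slc25a43 had 4.75, 4.61 and 3.92 FPKM in TPhP libraries, against 2.43, 2.88 and 2.31 FPKM in DPhP libraries (adjusted p = 0.000148). Slc25a1 was higher in TPhP than in DPhP libraries (log2 fold change 0.43, 95% interval 0.35 to 0.51, adjusted p = 6.12e-07), with 51.5 to 52.7 FPKM in TPhP and 37.1 to 40.7 FPKM in DPhP libraries. The 5 lower members were Slc25a37 (-0.33), Slc25a25 (-0.30), Slc25a40 (-0.29), Slc25a17 (-0.27) and Slc25a24 (-0.20).

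Some members differed between the compounds without a call against Control, or the reverse. Slc25a10 and Slc25a16 were higher in TPhP than in DPhP libraries (log2 fold changes 0.14 and 0.18, adjusted p = 0.0103 and 0.0181), though DPhP was called against Control for neither, and both calls ended after rescaling to a common sum (0.126 and 0.0985). The Slc25a16 call also ended without TPhP 1 or DPhP 3 (0.0691 and 0.0782). Slc25a4, Slc25a29 and Slc25a51 were called between DPhP and Control but not between TPhP and DPhP (adjusted p = 0.499, 0.555 and 0.136). The 95% intervals of the 12 members without a call between the compounds lay between -0.20 and 0.31. The ornithine carrier Slc25a15 (0.15, adjusted p = 0.0796) passed without TPhP 1 or DPhP 2 (0.0468 and 0.0446). Both comparisons with Control share the 3 Control libraries, so their values are given side by side and no relation between them is drawn.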

How the data were processed

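The authors deposited a table of FPKM values for 19058 genes in 9 libraries, to 2 decimals, on genome build GRCm38.p6 per the submitters' processing notes. No source used here names the aligner, counting tool, annotation, filters or strand of the kit. Because FPKM are no counts, count models were not used. A gene was tested where 3 or more of the libraries reached 1 FPKM, as log2(FPKM + 1), which understates the change of low genes. All libraries entered 1 fit of the group means by limma 3.58.1 (R 4.3.3), with an intensity trend, two-sided, and Benjamini-Hochberg adjustment over all 12369 tested genes; calls had an adjusted p under 0.05. The script was tested on simulated data. Unique sequence is the share of 75-base stretches absent from GENCODE M21 transcripts of other genes. Promoters and positions came from RefSeq tables of GRCm38.p6, and Python 3.11.15 was used for them; protein sequences were not used here.

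The members, gene lists, marker lists and motifs were chosen with earlier results of these data known. All members entered the counts, and 1 is not reported here by itself; the others were accounted for, with single values for those differing by at least 0.5 on the log2 scale in a comparison or called with TPhP, and for some other called members. From each other list, up to 4 called genes with the smallest p with DPhP and up to 2 with TPhP were named. Alternatives covered pseudocounts of 0.1 and 0.5, filters, scalings, a 6-library fit, a replicate block, no trend, and leaving out each library.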

Additional observations from a re-analysis of the deposited data

How the results depend on the processing

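Of the member calls, 22 of 27 between DPhP and Control and 23 of 26 between TPhP and DPhP held under every alternative that tested them, and the 1 call between TPhP and Control did not. The count of members lower with TPhP was 0 without a filter, after rescaling to a common sum and with a variance without trend, and 0 to 1 without single libraries. The count higher with TPhP was 1 in the fit to the 6 libraries compared, where Slc25a1 passed, and 0 to 1 without single libraries. Genes called over the whole table between TPhP and Control numbered 163 to 339 higher and 250 to 436 lower without single libraries, against 319 and 450; the smallest counts came without TPhP 2, and counts without TPhP 1, Control 1 or Control 2 were also more than 1.5 times lower. Signs turned for 2 called members between DPhP and Control, Slc25a51 after rescaling to a common sum (0.0108) and Slc25a4 after quantile normalization (0.0241). For Slc25a30 the log2 fold change with DPhP stayed between -2.11 and -1.97. In 48 further comparisons of single members, with an absolute log2 difference under 0.1 and no unadjusted p under 0.05, the sign turned under some alternative in 29. With the replicate block 22 members fell and 5 rose with DPhP, 1 fell and 0 rose with TPhP, and 21 were higher and 5 lower in TPhP than in DPhP libraries, as without it. The replicate numbers gave no pairing in the comparisons with Control. Deviations of same-numbered libraries there correlated between -0.121 and -0.0186, and 0 of 6 libraries in each comparison correlated best with their own number. Between the compounds these correlations were 0.0175, 0.0747 and 0.104, and 4 of 6 libraries correlated best with their own number, so a weak pairing was not settled there. The share of higher calls over all genes with TPhP was 39.5% to 54.5% under the other scalings, against 41.5%. Depth is unknown, so no counting error can be set beside the low values of members under 1 FPKM.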
